A study of Mus musculus with 24 samples.

Results

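Antigen presentation genes were measured in BMDMs, macrophages that were derived in culture from the bone marrow of mice. The genes are the 44 entries of the deposited count table whose symbol starts with H2-, the mouse major histocompatibility complex (MHC), and 11 genes that serve it: B2m, Cd74, Ciita, Nlrc5, Rfx5, Tap1, Tap2, Tapbp, Psmb8, Psmb9 and Psmb10. They make 55 of the 24557 genes in the table. Of these 55, 35 had a count in at least 1 library, 20 had 0 counts in every library, and 16 had at least 100 counts over the 24 libraries.

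The libraries fall into 6 groups of 4: Ltb4r2-/- M1, WT M1, Ltb4r2-/- M2, WT M2, Ltb4r2-/- M0 and WT M0. Ltb4r2-/- mice carry a global deletion of the gene for BLT2, a receptor for leukotriene B4 and related lipids, on the C57BL/6J background, and WT mice were their littermates, so the deletion is not limited to macrophages. Every culture, controls included, had M-CSF at 10 ng/ml for 7 days to form macrophages, with no age in the labels. The 4 libraries of a group are labelled as biological replicates, and whether libraries of different states that carry the same number share an animal is not given in the sources used here. From day 7, M1-like cells had lipopolysaccharide (LPS) at 10 ng/ml together with IFN-γ at 25 ng/ml for 16 h. M2-like cells had IL-4 at 10 ng/ml for 16 h, and M0 cells had none of these.

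MHC class I molecules hold a heavy chain and β2-microglobulin and show peptides from inside the cell to CD8 T cells. The peptides are cut by the proteasome, in inflamed cells by the immunoproteasome, and are carried into the endoplasmic reticulum by the TAP transporter, where tapasin helps to load them. MHC class II molecules hold an α and a β chain, travel with the invariant chain CD74 and show peptides of engulfed material to CD4 T cells. IFN-γ is the classical inducer of both pathways in macrophages, acting on class I genes in part through NLRC5 and on class II genes through CIITA, with RFX5 and NF-Y as DNA-binding partners of both. The question asked here is how these genes differ between states and between genotypes.

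Depth and an unknown strand setting limit every value below. The libraries hold 427825 to 729580 counts, and values are given as CPM, counts scaled to a common library total and not to gene length, with TMM factors of the 24 libraries. On this scale 3 counts in a library, used here as a rough upper limit for a count of 0, were 4.12 to 8.36 CPM. Replicates differed beyond sampling noise, so a count of 0 may hide a higher level. TMM factors were 0.729 to 0.841 in M1 and 1.10 to 1.23 in the other states. With total counts alone as the scale, the median of all genes moved by -0.59 in Ltb4r2-/- and -0.63 in WT for M1 against M0 on the log2 scale, against 0.00 in Ltb4r2-/- and -0.02 in WT with TMM. Ltb4r2 had 2 counts in the Ltb4r2-/- M1, 2 in the Ltb4r2-/- M2 and 10 in the Ltb4r2-/- M0 libraries together, and 0 in the WT libraries, so the genotype labels could not be checked by the deleted gene and the groups are called as they are labelled. Between 4 and 6 of 8 macrophage markers had mean counts of 10 or more, depending on the group. Their summed level was 215 to 371 CPM in Ltb4r2-/- M1 and 356 to 531 CPM in WT M1, 234 to 375 CPM in Ltb4r2-/- M2 and 319 to 410.1 CPM in WT M2, and 554 to 707 CPM in Ltb4r2-/- M0 and 495 to 714 CPM in WT M0, so it was lower in all M1 and M2 libraries than in Ltb4r2-/- M0, and its part in the results was not tested. Of all genes with a position, 24.1% share exon bases with a gene on the opposite strand, and they held 90.5% of the counts. Whether the counting used strand, and which one, is not given in the sources used here. Reads of the opposite strand may thus make up an unknown share of the counts of a gene, large or small. That share was not tested. Counts below, whether low, unchanged or raised, are therefore not a sure measure of the RNA of the gene named.

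Promoter sequences of 4 members are shown because they carry, in readable form, the motifs through which these genes are known to be controlled. Windows of 300 bases around the start site (250 bases before it and 50 from it on, RefSeq, GRCm38.p6, which is mm10) were found for 39 of the 55 genes. The Y box CTGATTGG, the NF-Y site of MHC promoters, occurred on either strand in 20 of these 39, and in 4.10% of all 32851 windows. The CCAAT box, whose 5 letters lie within the Y box, occurred in 34 of the 39 and in 37.4% of all windows. The interferon-stimulated response element, searched as GAAA, any 2 bases and GAAA, occurred in 3 of the 39 (B2m, H2-T23 and H2-T22) and in 3.44% of all windows. A gene counted if any of its windows held the motif, while the percentages are of single windows, so genes and windows are unlike units. Related H2 promoters are copies of each other, so these windows are not independent, and a match of letters is not a bound site. Below, each run covers 200 to 31 bases before the start site, read 5′ to 3′ on the strand of the gene, with motif letters in capitals.
H2-Aa (chr17:34287854-34288023, minus strand): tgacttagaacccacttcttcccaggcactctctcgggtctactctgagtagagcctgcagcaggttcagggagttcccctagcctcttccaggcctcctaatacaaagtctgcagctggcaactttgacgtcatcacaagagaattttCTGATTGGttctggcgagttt
B2m (chr2:122147487-122147656, plus strand): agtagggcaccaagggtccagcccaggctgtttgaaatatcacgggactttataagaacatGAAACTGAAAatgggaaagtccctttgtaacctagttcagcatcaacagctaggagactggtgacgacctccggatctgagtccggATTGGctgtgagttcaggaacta
H2-T22 (chr17:36042773-36042942, minus strand): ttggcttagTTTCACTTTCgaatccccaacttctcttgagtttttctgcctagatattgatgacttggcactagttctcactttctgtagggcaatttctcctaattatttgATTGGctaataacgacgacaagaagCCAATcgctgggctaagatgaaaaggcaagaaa
H2-M10.5 (chr17:36772710-36772879, plus strand): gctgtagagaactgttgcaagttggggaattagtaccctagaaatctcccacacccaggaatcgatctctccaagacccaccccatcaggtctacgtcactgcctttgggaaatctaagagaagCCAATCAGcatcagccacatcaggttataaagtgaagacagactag
The capitals mark the Y box of H2-Aa at 51 bases before the start, the interferon element and an inverted CCAAT box of B2m at 139 and 53 bases, the inverted interferon element and CCAAT boxes of H2-T22 in both orientations, and the inverted Y box of H2-M10.5 at 76 bases. H2-M10.5, a class I gene known from sensory neurons of the mouse vomeronasal organ, had 0 counts in all 24 libraries, so the Y box letters were also present beside a gene with no count.

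The 20 genes without a count were mostly non-classical class I genes, which numbered 30 and of which 13 had a count. They include the H2-M10 family except H2-M10.2, which had 1 count. Of the other members with few counts, H2-Q5 had 17, H2-M3 had 14, H2-DMb1 had 13 and H2-K2 had 10 over all libraries, and 7 had under 5. The class II genes H2-Ea-ps and H2-Eb2 and the class I gene H2-L were also at 0. C57BL/6 mice, of the H2b haplotype, are known to lack a working Ea gene and H2-L. Reads that fit several near-identical H2 genes cannot be assigned by a gene counter, so low or 0 counts of the H2-Q, H2-T and H2-K families are uncertain, as are the shares between H2-K1, H2-D1 and their copies. H2-Ke6, with 14 counts, carries the H2 name by its place in the complex and encodes a steroid and fatty acid dehydrogenase.

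Together the 55 genes took 0.248% ± 0.0174 of all counts in Ltb4r2-/- M1 and 0.246% ± 0.0205 in WT M1, 0.0771% ± 0.00629 in Ltb4r2-/- M2 and 0.0777% ± 0.00479 in WT M2, and 0.0503% ± 0.00519 in Ltb4r2-/- M0 and 0.0560% ± 0.00571 in WT macrophages of that state (SD, n = 4 each). The share of every M1 library lay above that of every M2 library, and the share of every M2 library above that of every M0 library.

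M1 against M0 asks how LPS with IFN-γ changes the pathway. Of the 55 genes, 13 had enough counts for edgeR's quasi-likelihood test across 3047 genes. In Ltb4r2-/- macrophages 11 of these were higher in M1 and 0 lower (27.2% of all genes tested were higher and 25.7% lower). In WT macrophages 11 were higher and 1, Rfx5, was lower (26.9% of all genes tested were higher and 24.3% lower). The median log2 fold change of the 13 was 3.02 in Ltb4r2-/- and 3.04 in WT. Cd74, H2-Ab1, H2-D1, H2-T23 and Tap1 passed the filter on low counts through their M1 or M2 libraries and not in the M0 libraries alone. A difference was thus built into their inclusion, and the median of the 13 holds these genes. The other 8 passed in M0 alone, and 6 of them were higher in M1 in each genotype. In bulk RNA, fewer cells of a type and less RNA per cell cannot be told apart. The plot of log2 fold changes gives the 13 genes in the 3 contrasts between states.

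**Figure D1:**
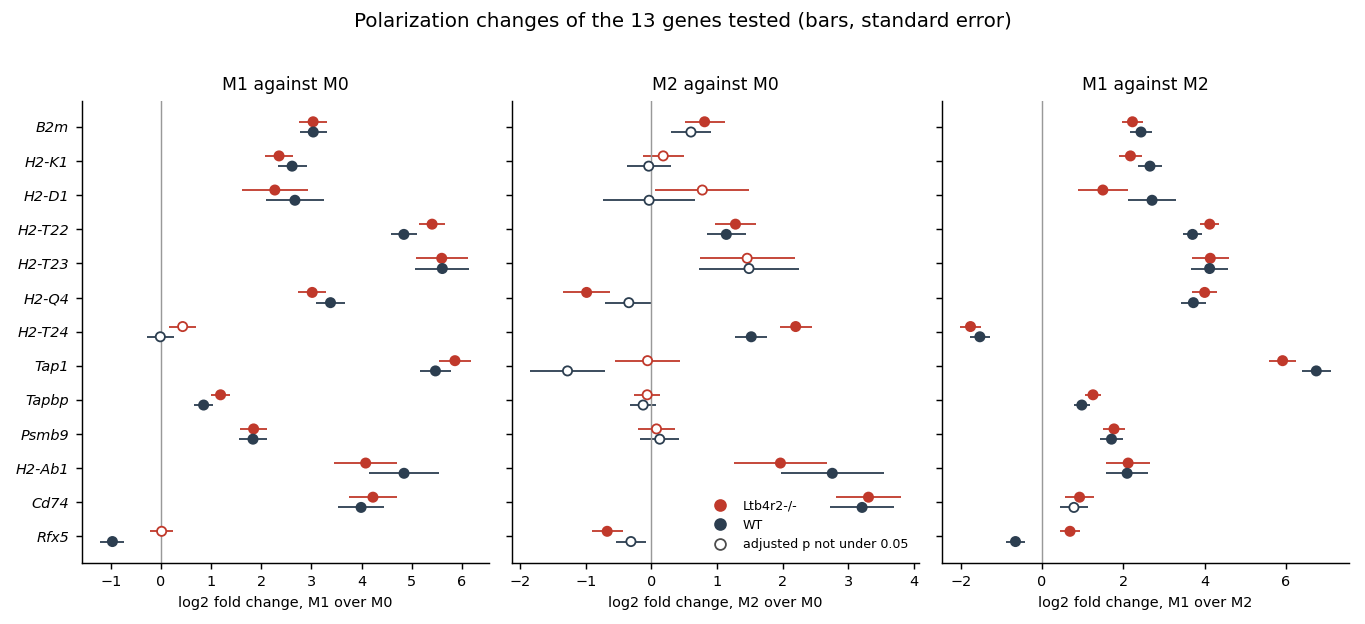
Log2 fold changes between states for the 13 genes tested, M1 over M0, M2 over M0 and M1 over M2, in Ltb4r2-/- (red) and WT (dark) macrophages. Points are edgeR estimates, lines are standard errors and open points had an adjusted p of 0.05 or more. Tap1 lies at 5.86 and 5.47 in M1 over M0, and H2-T24 lies to the right in M2 over M0 and to the left in M1 over M2 in both genotypes.

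The largest change in the supply of peptides was that of Tap1, which encodes one chain of the TAP transporter (chromosome 17, 34187553 to 34197225, plus strand, mm10). Tap1 had 712, 789, 718 and 777 CPM in the Ltb4r2-/- M1 libraries and 695, 621, 767 and 772 CPM in the WT M1 libraries. It had 13.7, 13.4, 17.8 and 5.73 CPM in the Ltb4r2-/- M0 libraries and 14.1, 9.07, 6.06 and 36.8 CPM in the WT M0 libraries. Every M1 library was above every M0 library, and the log2 fold change with its standard error (SE) was 5.86 (SE 0.32, adjusted p = 3.82e-17) in Ltb4r2-/- and 5.47 (SE 0.31, adjusted p = 1.65e-16) in WT. In M2, Tap1 had 11.6, 26.5, 12.7 and 0 CPM in the Ltb4r2-/- M2 libraries and 12.1, 4.06, 4.78 and 4.08 CPM in the WT M2 libraries, which overlapped the M0 libraries. Tap1 shares 212 exon bases with Psmb9 on the opposite strand, and the part of each in the counts of the other was not tested.

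Psmb9, the immunoproteasome subunit that replaces Psmb6, had 106, 122, 117 and 111 CPM in the Ltb4r2-/- M1 libraries and 133, 92.0, 94.0 and 83.4 CPM in the WT M1 libraries. It had 30.6, 26.5, 31.9 and 43.5 CPM in the Ltb4r2-/- M2 libraries and 20.7, 32.5, 35.1 and 34.7 CPM in the WT M2 libraries. In M0 Psmb9 had 21.5, 46.2, 31.6 and 25.8 CPM in the Ltb4r2-/- M0 libraries and 23.6, 23.6, 40.9 and 23.2 CPM in the WT M0 libraries. The M1 libraries of Psmb9 all lay above the M2 and M0 libraries, which overlapped each other, and the log2 fold change for M1 against M0 was 1.85 (SE 0.27, adjusted p = 4.79e-07) in Ltb4r2-/- and 1.84 (SE 0.27, adjusted p = 8.72e-07) in WT. For Tapbp, which encodes tapasin, the M1 values were 281, 258, 240.2 and 279 CPM in Ltb4r2-/- and 246, 184, 277 and 226 CPM in WT. The M2 values of Tapbp were 143, 108, 80.7 and 107 CPM in Ltb4r2-/- and 86.3, 89.3, 139 and 157 CPM in WT, and the M0 values 91.7, 115, 114 and 140.5 CPM in Ltb4r2-/- and 115, 114, 142 and 143 CPM in WT. Tapbp was higher in every M1 library than in every M0 library, by 1.19 (SE 0.19, adjusted p = 2.19e-06) in Ltb4r2-/- and 0.85 (SE 0.19, adjusted p = 2.75e-04) in WT, but the WT call was lost with total counts as the scale, at a log2 fold change of 0.23 (adjusted p = 0.305). Tapbp shares 149 bases with Zbtb22 on the same strand, a zinc finger gene that also rose in M1, by 2.01 in Ltb4r2-/- and 2.54 in WT, and its part in the counts of Tapbp was not tested. Gm19412, which was not counted, shares 904 exon bases with Tapbp on the opposite strand.

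Tap2, the partner of Tap1 in the transporter, had too few counts for the fit across genes. Tap2 had 16.8, 24.4, 16.0 and 8.36 CPM in the Ltb4r2-/- M1 libraries and 14.8, 30.1, 40.6 and 31 CPM in the WT M1 libraries. It had 1.46, 2.04, 2.12 and 0 CPM in the Ltb4r2-/- M2 libraries and 0, 0, 3.19 and 6.12 CPM in the WT M2 libraries. In M0 Tap2 had 3.90, 2.98, 0 and 5.73 CPM in the Ltb4r2-/- M0 libraries and 9.42, 0, 6.06 and 0 CPM in the WT M0 libraries. Within each genotype its M1 libraries all lay above those of M2 and M0, and the difference between M1 and M0 had an exact two-sided permutation p of 0.0286 in Ltb4r2-/- and in WT, the smallest that 70 arrangements of 8 libraries allow. Psmb8, the immunoproteasome subunit that replaces Psmb5, had 25 counts in the Ltb4r2-/- M1 libraries together and 26 in WT M1, against 2 in Ltb4r2-/- M0 and 2 in WT M0, with the same exact p of 0.0286 in each genotype. Psmb8 reached the 10 counts that this test needed over both groups through its M1 libraries, so a difference was built into its inclusion. Gm20496 shares 498 exon bases with Psmb8 and 165 with Tap2 on the opposite strand, and Gm15821 shares 533 with Tap2, and neither was counted. Psmb10, which replaces Psmb7, overlapped between states. Psmb10 had 4.81, 22.2, 0 and 19.5 CPM in the Ltb4r2-/- M1 libraries and 4.24, 23, 10.2 and 4.76 CPM in the WT M1 libraries. It had 11.6, 10.2, 4.25 and 0 CPM in the Ltb4r2-/- M2 libraries and 13.8, 10.2, 11.2 and 8.16 CPM in the WT M2 libraries. In M0 Psmb10 had 13.7, 14.9, 11 and 12.9 CPM in the Ltb4r2-/- M0 libraries and 0, 12.7, 7.58 and 7.75 CPM in the WT M0 libraries. The M1 and M0 libraries of Psmb10 overlapped (exact two-sided permutation p = 0.800 in Ltb4r2-/- and 0.6 in WT), which at 19 and 21 counts in M1 does not show that they were alike.

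B2m encodes β2-microglobulin, the light chain of every class I molecule (chromosome 2, 122147686 to 122153083, plus strand). B2m had 236, 259.9, 167 and 148 CPM in the Ltb4r2-/- M1 libraries and 237, 249, 190.5 and 259.7 CPM in the WT M1 libraries. It had 43.7, 59.2, 31.9 and 38.5 CPM in the Ltb4r2-/- M2 libraries and 31.1, 67.0, 30.3 and 46.9 CPM in the WT M2 libraries. In M0 B2m had 29.3, 17.9, 28.8 and 22.9 CPM in the Ltb4r2-/- M0 libraries and 39.3, 16.3, 21.2 and 36.8 CPM in the WT M0 libraries. The M1 libraries of B2m lay above all M2 and M0 libraries, and the log2 fold change for M1 against M0 was 3.03 (SE 0.28, adjusted p = 2.43e-11) in Ltb4r2-/- and 3.04 (SE 0.27, adjusted p = 1.80e-11) in WT. No gene on the opposite strand shares exon bases with B2m in the annotation.

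The classical class I heavy chains of these mice are encoded by H2-K1 and H2-D1. H2-K1 (chromosome 17, 33996017 to 34000347, minus strand) had 139.5, 284, 192 and 117 CPM in the Ltb4r2-/- M1 libraries and 139.8, 203, 221 and 241 CPM in the WT M1 libraries. It had 39.3, 42.9, 23.4 and 55.2 CPM in the Ltb4r2-/- M2 libraries and 34.5, 28.4, 25.5 and 38.7 CPM in the WT M2 libraries. In M0 H2-K1 had 25.4, 55.2, 28.8 and 33.0 CPM in the Ltb4r2-/- M0 libraries and 20.4, 32.7, 42.4 and 34.9 CPM in the WT M0 libraries. H2-K1 was higher in M1 than in M0 by 2.36 (SE 0.29, adjusted p = 1.48e-08) in Ltb4r2-/- and 2.62 (SE 0.29, adjusted p = 2.53e-09) in WT, with no overlap of libraries. H2-D1 (chromosome 17, 35262730 to 35267499, plus strand) had 7.22, 22.2, 25.2 and 22.3 CPM in the Ltb4r2-/- M1 libraries and 36.0, 69.0, 30.5 and 33.4 CPM in the WT M1 libraries. It had 8.74, 8.16, 6.37 and 3.35 CPM in the Ltb4r2-/- M2 libraries and 0, 4.06, 12.8 and 8.16 CPM in the WT M2 libraries. In M0 H2-D1 had 1.95, 2.98, 2.75 and 7.17 CPM in the Ltb4r2-/- M0 libraries and 3.14, 9.07, 3.03 and 11.6 CPM in the WT M0 libraries. For H2-D1 the log2 fold change was 2.27 (SE 0.66, adjusted p = 0.00400) in Ltb4r2-/- and 2.67 (SE 0.59, adjusted p = 2.47e-04) in WT, and the lowest M1 library, with 3 counts, was just above the highest M0 library of Ltb4r2-/-.

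Among non-classical class I genes, H2-T22, H2-T23 and H2-Q4 rose in M1. H2-T22 encodes a class I-like protein that γδ T cells of the mouse recognise (chromosome 17, 36037128 to 36042747, minus strand). H2-T22 had 989, 955, 842 and 786 CPM in the Ltb4r2-/- M1 libraries and 822, 727, 955 and 972 CPM in the WT M1 libraries. It had 46.6, 51.0, 74.4 and 35.1 CPM in the Ltb4r2-/- M2 libraries and 39.7, 75.1, 49.4 and 106 CPM in the WT M2 libraries. In M0 H2-T22 had 3.90, 29.8, 26.1 and 20.1 CPM in the Ltb4r2-/- M0 libraries and 25.1, 36.3, 34.8 and 23.2 CPM in the WT M0 libraries. All M1 libraries of H2-T22 stood far above the rest, and the log2 fold change against M0 was 5.41 (SE 0.26, adjusted p = 2.59e-18) in Ltb4r2-/- and 4.84 (SE 0.25, adjusted p = 1.75e-17) in WT. A930015D03Rik, an antisense RNA that shares 1003 exon bases with H2-T22, was higher in M1 too, by 1.55 in Ltb4r2-/- and 1.95 in WT, and its part in the counts of H2-T22 was not tested.

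H2-T23 encodes Qa-1, the class I molecule that shows signal peptides of other class I chains to NK cells. H2-T23 had 149, 127, 108 and 103 CPM in the Ltb4r2-/- M1 libraries and 114, 119, 117 and 109.6 CPM in the WT M1 libraries. It had 7.28, 0, 12.7 and 6.70 CPM in the Ltb4r2-/- M2 libraries and 1.73, 8.12, 11.2 and 4.08 CPM in the WT M2 libraries. In M0 H2-T23 had 0, 2.98, 2.75 and 2.87 CPM in the Ltb4r2-/- M0 libraries and 0, 0, 3.03 and 5.81 CPM in the WT M0 libraries, or at most 3 counts in a library, so the fitted log2 fold changes of 5.60 in Ltb4r2-/- and 5.61 in WT (adjusted p = 4.18e-11 and 9.17e-11) rest on a base near 0. H2-Q4, a Qa gene, had 325, 293, 265 and 201 CPM in the Ltb4r2-/- M1 libraries and 322, 301, 305 and 264 CPM in the WT M1 libraries. It had 29.1, 16.3, 12.7 and 6.70 CPM in the Ltb4r2-/- M2 libraries and 19.0, 18.3, 27.1 and 24.5 CPM in the WT M2 libraries. In M0 H2-Q4 had 25.4, 19.4, 45.3 and 41.6 CPM in the Ltb4r2-/- M0 libraries and 18.8, 25.4, 18.2 and 54.2 CPM in the WT M0 libraries. H2-Q4 was higher in every M1 library than in every other library, with a log2 fold change against M0 of 3.02 (SE 0.28, adjusted p = 3.44e-11) in Ltb4r2-/- and 3.38 (SE 0.29, adjusted p = 5.10e-12) in WT. Of the class I genes with under 100 counts, H2-T10, a close relative of H2-T22, had 24 counts in Ltb4r2-/- M1 and 17 in WT M1, against 0 in both M0 groups. It was at least 12.6-fold higher in Ltb4r2-/- and at least 7.24-fold higher in WT, set against a floor of 3 counts over the 4 M0 libraries (exact two-sided permutation p = 0.0286 in each). Antisense RNAs that were not counted share exon bases with both, Gm11131 with 496 of H2-Q4 and BC023719 with 925 of H2-T10.

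**Figure D2:**
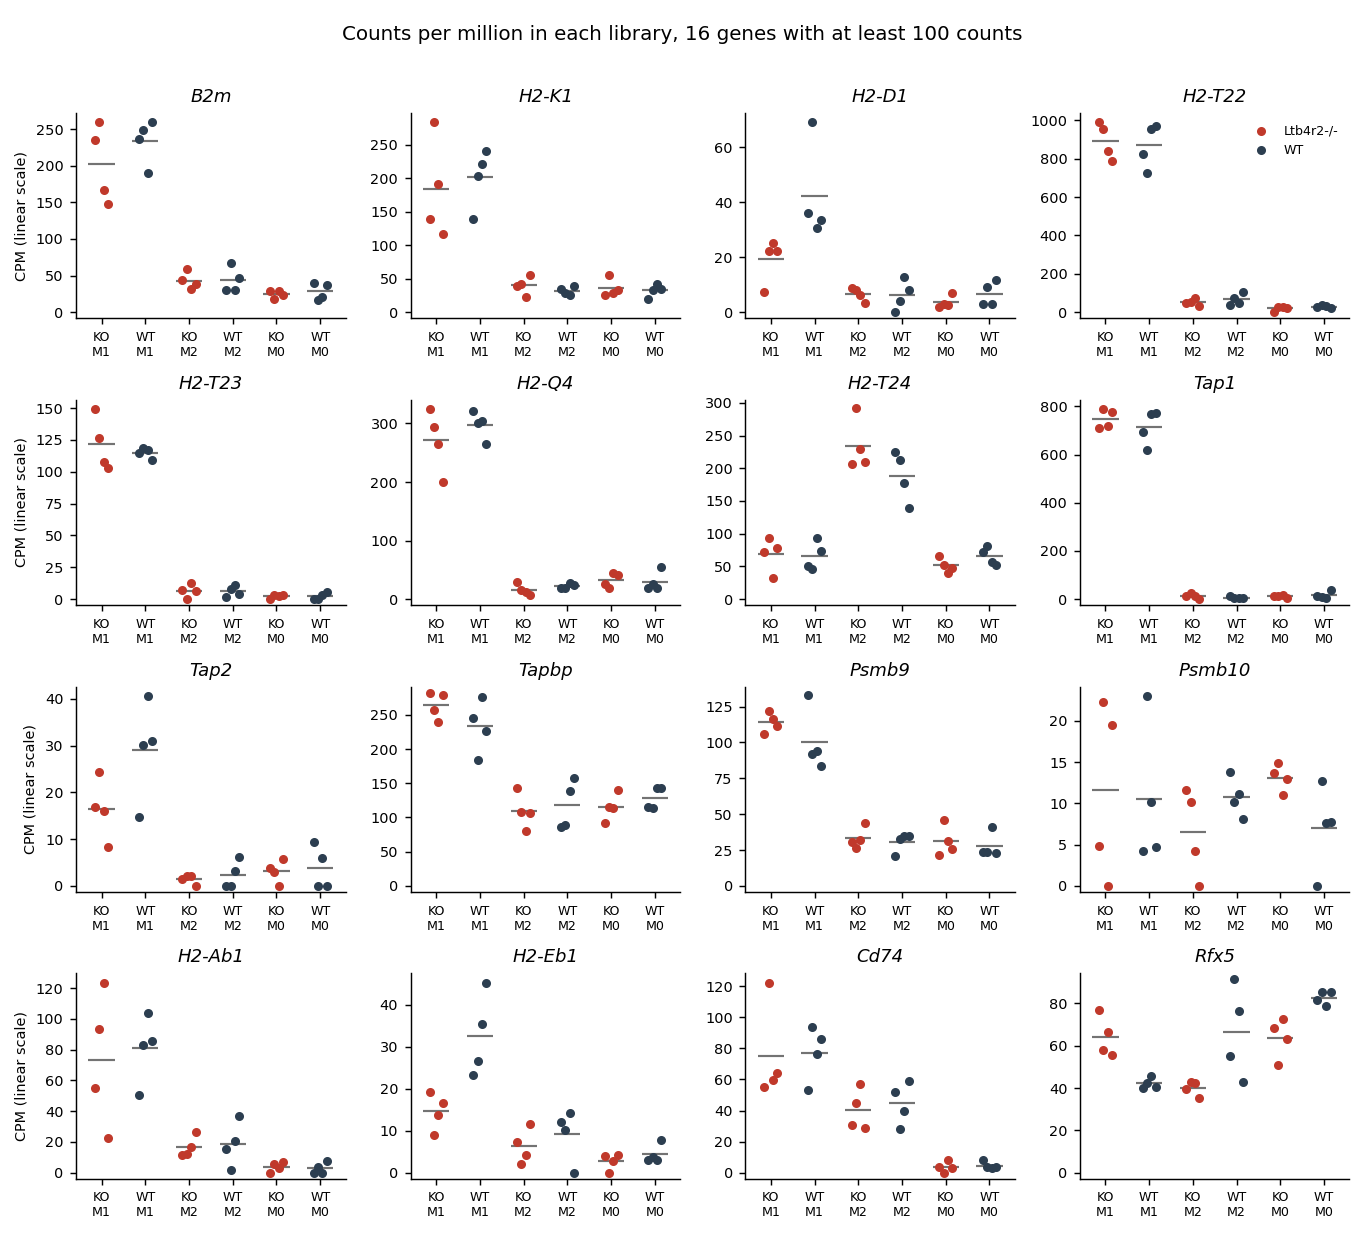
CPM of the 16 genes with at least 100 counts in each of the 24 libraries, by group, on linear axes that differ between panels. Points are libraries of Ltb4r2-/- (KO, red) and WT (dark) macrophages and grey lines are group means. Tap1 sits between 621 and 789 CPM in M1 and at most 36.8 CPM elsewhere, while H2-T24 is highest in M2.

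Counts of class II genes were close to 0 in M0 and were higher in M1. H2-Ab1 encodes the β chain of I-A, the class II molecule of these mice (chromosome 17, 34257689 to 34269419, plus strand). H2-Ab1 had 55.3, 93.3, 124 and 22.3 CPM in the Ltb4r2-/- M1 libraries and 50.8, 83.1, 104 and 85.8 CPM in the WT M1 libraries. It had 11.6, 12.2, 17.0 and 26.8 CPM in the Ltb4r2-/- M2 libraries and 15.5, 2.03, 20.7 and 36.7 CPM in the WT M2 libraries. In M0 H2-Ab1 had 0, 5.96, 2.75 and 7.17 CPM in the Ltb4r2-/- M0 libraries and 0, 3.63, 0 and 7.75 CPM in the WT M0 libraries. The M1 libraries of H2-Ab1 lay above those of M0 without overlap, by 4.08 (SE 0.63, adjusted p = 1.52e-06) in Ltb4r2-/- and 4.85 (SE 0.69, adjusted p = 3.66e-07) in WT on the log2 scale, and the lowest of Ltb4r2-/- M1 lay among the M2 libraries.

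H2-Aa, the α chain of I-A, had 37 counts in Ltb4r2-/- M1 and 35 in WT M1, against 0 in all 8 M0 libraries. Against the same floor of 3 counts over a group, its M1 level was 19.4-fold higher in Ltb4r2-/- and 14.9-fold higher in WT. The exact two-sided permutation p was 0.0286 in each, not adjusted. H2-Aa reached the 10 counts for this test through its M1 libraries, so a difference was built into its inclusion. Its M2 groups had 10 counts in Ltb4r2-/- and 5 in WT. H2-Eb1, the β chain of I-E, had 19.2, 8.89, 13.7 and 16.7 CPM in the Ltb4r2-/- M1 libraries and 23.3, 26.5, 35.6 and 45.3 CPM in the WT M1 libraries. It had 7.28, 2.04, 4.25 and 11.7 CPM in the Ltb4r2-/- M2 libraries and 12.1, 10.2, 14.4 and 0 CPM in the WT M2 libraries. In M0 H2-Eb1 had 3.90, 0, 2.75 and 4.30 CPM in the Ltb4r2-/- M0 libraries and 3.14, 3.63, 3.03 and 7.75 CPM in the WT M0 libraries. Its M1 libraries lay above those of M0 in both genotypes (exact two-sided permutation p = 0.0286 in each).

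Cd74, the invariant chain, lies on chromosome 18 and was near 0 in M0 too. Cd74 had 55.3, 122, 59.5 and 64.1 CPM in the Ltb4r2-/- M1 libraries and 52.9, 93.8, 76.2 and 85.8 CPM in the WT M1 libraries. It had 30.6, 44.9, 57.4 and 28.5 CPM in the Ltb4r2-/- M2 libraries and 51.8, 28.4, 39.9 and 59.1 CPM in the WT M2 libraries. In M0 Cd74 had 3.90, 0, 8.24 and 2.87 CPM in the Ltb4r2-/- M0 libraries and 7.85, 3.63, 3.03 and 3.87 CPM in the WT M0 libraries. Cd74 was higher in M1 than in M0 by 4.23 (SE 0.48, adjusted p = 2.95e-09) in Ltb4r2-/- and 3.99 (SE 0.47, adjusted p = 7.43e-09) in WT, and each M2 library was also above each M0 library.

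Genes of class II peptide exchange had few counts. H2-DMa, which encodes a chain of H2-DM, the factor that frees class II of the invariant chain peptide, had 12 counts in Ltb4r2-/- M1 and 6 in WT M1, against 2 in Ltb4r2-/- M0 and 3 in WT M0. Brd2, a chromatin reader that shares 360 exon bases with H2-DMa on the opposite strand, rose in M1 by 2.82 in Ltb4r2-/- and 2.52 in WT. H2-Oa, a chain of H2-O, which restrains H2-DM, had 15 counts in Ltb4r2-/- M1 and 9 in WT M1, against 1 in Ltb4r2-/- M0 and 0 in WT M0. The antisense RNA BC051537, with 321 shared exon bases, had 671 ± 124 CPM in Ltb4r2-/- M1 and 679 ± 106 CPM in WT M1, against 18.7 ± 11.4 CPM in Ltb4r2-/- M0 and 16.0 ± 5.73 CPM in the WT M0 libraries (SD, n = 4 each). The M1 and M0 libraries of H2-Oa overlapped in Ltb4r2-/- (exact two-sided permutation p = 0.143). In WT, H2-DMa had 6 counts in M1 and 8 in M2, while Brd2 averaged 50.6 ± 9.14 CPM in WT M1 and 8.95 ± 3.86 CPM in WT M2 (SD, n = 4 each). The part of Brd2 and BC051537 in these counts was not tested.

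The markers of dendritic cells, which carry much class II, did not move as one between states. The summed level of 9 dendritic cell markers was 675 to 1059 CPM in Ltb4r2-/- M1 and 481 to 822 CPM in WT M1, 140.2 to 200.02 CPM in Ltb4r2-/- M2 and 126 to 183 CPM in WT M2, and 63.1 to 108 CPM in Ltb4r2-/- M0 and 34.5 to 58.1 CPM in WT M0. In M1 nearly all of it was Xcr1, at 854 CPM in Ltb4r2-/- and 652 CPM in WT, and Flt3, Zbtb46, Cd209a, Itgax and Siglech had 0 counts there. Clec9a was at 0 CPM in Ltb4r2-/- M1 and 0.884 CPM in WT M1, against 46.2 CPM in Ltb4r2-/- M0 and 17.4 CPM in WT M0. In M2 Itgax was at 52.8 CPM in Ltb4r2-/- and 41.9 CPM in WT, and Flt3, Zbtb46 and Cd209a had 0 counts in all groups. All 6 B cell markers had mean counts under 10 in all groups, and Pax5 and Ebf1 were at 0. Their part in the class II values was not tested.

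The 3 regulators differed from each other. Ciita, the class II transactivator, had 8 counts in Ltb4r2-/- M1 and 19 in WT M1, 11 in Ltb4r2-/- M2 and 12 in WT M2, and 21 in Ltb4r2-/- M0 and 8 in WT M0. The M1 and M0 libraries of Ciita overlapped in both genotypes (exact two-sided permutation p = 0.229 in Ltb4r2-/- and 0.0857 in WT), and at these counts a difference may have been missed. Dexi, which shares 329 exon bases with Ciita on the opposite strand, was higher by 3.02 in Ltb4r2-/- M1 and 3.11 in WT M1 than in M0. Nlrc5, the class I transactivator, had 12 counts in Ltb4r2-/- M1 and 21 in WT M1, against 2 in Ltb4r2-/- M0 and 0 in WT M0, which in WT is at least 8.94-fold higher (exact two-sided permutation p = 0.0286 in each genotype). The RNA 9330175E14Rik, with 78 shared exon bases on the other strand, had 537 ± 49.3 CPM in Ltb4r2-/- M1 and 500.4 ± 75.5 CPM in WT M1, against 30.8 ± 7.25 CPM in Ltb4r2-/- M0 and 28.2 ± 8.67 CPM in WT M0, and its part in the counts of Nlrc5 was not tested.

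Rfx5, the DNA-binding subunit shared by the class I and class II promoter complex, was the only tested member called lower in M1 than in M0, in WT. Rfx5 had 77.0, 57.8, 66.3 and 55.7 CPM in the Ltb4r2-/- M1 libraries and 40.2, 42.5, 45.7 and 40.5 CPM in the WT M1 libraries. It had 39.3, 42.9, 42.5 and 35.1 CPM in the Ltb4r2-/- M2 libraries and 55.2, 91.4, 76.5 and 42.8 CPM in the WT M2 libraries. In M0 Rfx5 had 68.3, 50.7, 72.7 and 63.1 CPM in the Ltb4r2-/- M0 libraries and 81.7, 85.3, 78.8 and 85.2 CPM in the WT M0 libraries. All WT M1 libraries were below all WT M0 libraries, with a log2 fold change of -0.97 (SE 0.24, adjusted p = 9.87e-04), while in Ltb4r2-/- the states overlapped, at 0.01 (SE 0.23, adjusted p = 0.970). With total counts as the scale Rfx5 was lower in Ltb4r2-/- M1 too, at -0.58 (adjusted p = 0.0314). An antisense RNA, B230398E01Rik, shares 1471 exon bases with Rfx5 and is not among the genes counted, so its part was not tested.

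**Figure D3:**
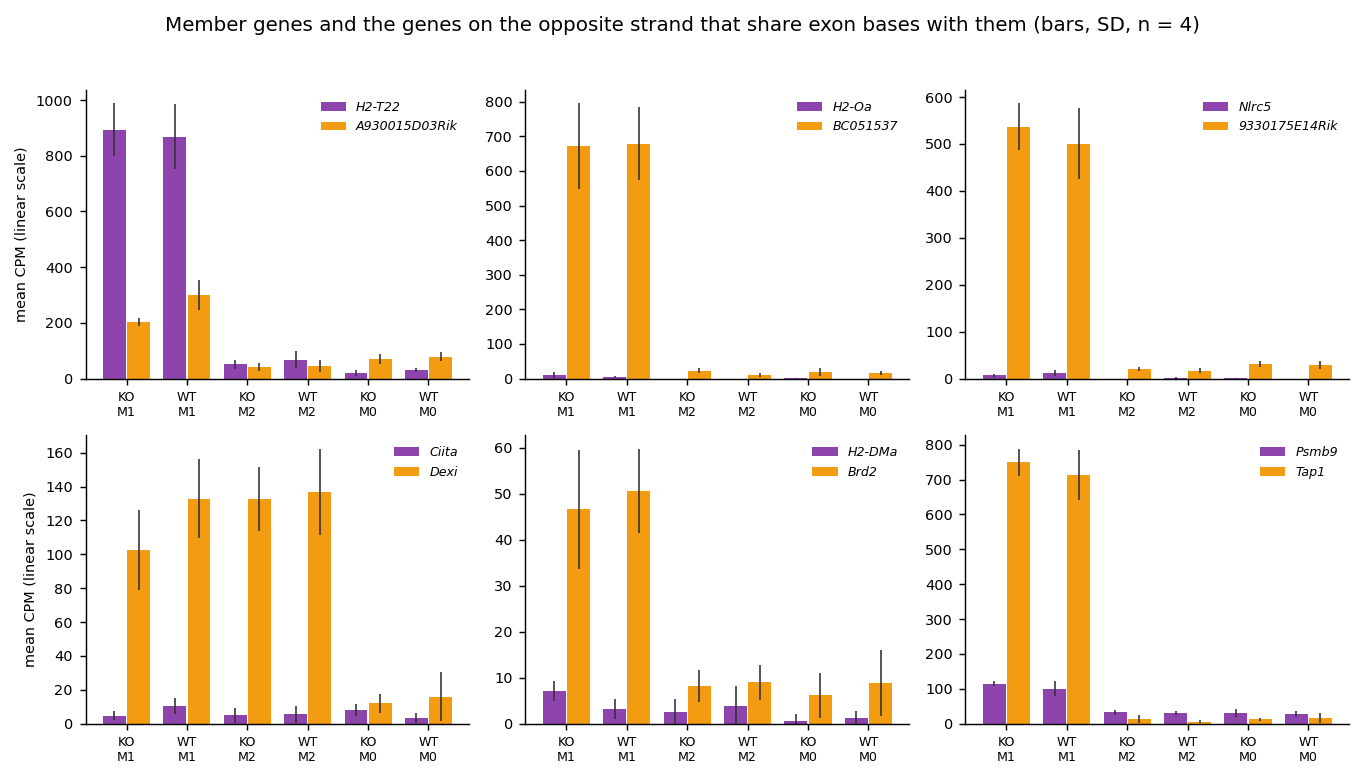
Mean CPM of 6 members (purple) and of the gene on the opposite strand that shares exon bases with each (orange), by group on linear axes, with SD bars over 4 libraries. BC051537, 9330175E14Rik and Brd2 had higher means in M1 than in M0, as did H2-Oa, Nlrc5 and H2-DMa. The libraries overlapped for H2-Oa in Ltb4r2-/- and for H2-DMa in WT. Dexi was higher in M1 and M2 than in M0, while Ciita overlapped between states. A930015D03Rik was lower in M2 than in M0, while H2-T22 was higher.

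M2 against M0 asks what IL-4 changes. In Ltb4r2-/- macrophages 5 of the 13 genes were higher in M2 and 2 lower (17% of all genes tested were higher and 15% lower). In WT macrophages 4 were higher and 0 lower (15.2% of all genes tested were higher and 11.8% lower). Cd74, H2-Ab1, H2-T22 and H2-T24 were higher in both genotypes. Cd74 and H2-Ab1 had passed the filter through their M1 or M2 libraries. Of the 8 that passed in M0 alone, 3 were higher and 2 lower in Ltb4r2-/-, and 2 were higher and 0 lower in WT.

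H2-T24, a non-classical class I gene of the T region (chromosome 17, 36005695 to 36020560, minus strand), had its highest values in M2. H2-T24 had 207, 292, 229 and 209 CPM in the Ltb4r2-/- M2 libraries and 224, 213, 177 and 139 CPM in the WT M2 libraries. It had 72.2, 93.3, 32.0 and 78.0 CPM in the Ltb4r2-/- M1 libraries and 50.8, 46.0, 94.0 and 73.9 CPM in the WT M1 libraries. In M0 H2-T24 had 66.4, 52.2, 39.8 and 47.3 CPM in the Ltb4r2-/- M0 libraries and 72.2, 81.7, 56.1 and 52.3 CPM in the WT M0 libraries. The M2 libraries of H2-T24 all lay above those of M1 and M0, which overlapped. The log2 fold change of H2-T24 for M2 against M0 was 2.2 (SE 0.24, adjusted p = 7.65e-09) in Ltb4r2-/- and 1.52 (SE 0.24, adjusted p = 7.36e-06) in WT. For M1 against M0 it was 0.43 (SE 0.27, adjusted p = 0.183) in Ltb4r2-/- and -0.01 (SE 0.26, adjusted p = 0.977) in WT, and with total counts as the scale -0.17 in Ltb4r2-/- (adjusted p = 0.581) and -0.62 in WT (adjusted p = 0.0368). H2-T24 and H2-T23 lie within the span of A930015D03Rik, from 35994453 to 36038435 on the other strand, without shared exon bases. A930015D03Rik was lower in M2 than in M0, at -0.71 in Ltb4r2-/- and -0.76 in WT on the log2 scale.

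Cd74 was higher in M2 than in M0 by 3.30 (SE 0.49, adjusted p = 2.10e-06) in Ltb4r2-/- and 3.21 (SE 0.48, adjusted p = 3.11e-06) in WT, and H2-Ab1 by 1.96 (SE 0.71, adjusted p = 0.0311) in Ltb4r2-/- and 2.75 (SE 0.78, adjusted p = 0.00756) in WT. H2-T22 was higher by 1.28 (SE 0.32, adjusted p = 0.00173) in Ltb4r2-/- and 1.14 (SE 0.29, adjusted p = 0.00340) in WT. Without WT M2 replicate 4 the WT calls of H2-Ab1 and H2-T22 were lost (adjusted p = 0.0534 and 0.0508), and the number of members called in WT dropped to 2. B2m, H2-Q4 and Rfx5 passed the threshold in Ltb4r2-/- and not in WT, and whether the genotypes differed in this is given with the interactions below. In Ltb4r2-/- B2m was at 0.81 (SE 0.30, adjusted p = 0.0400), H2-Q4 at -0.99 (SE 0.36, adjusted p = 0.0337) and Rfx5 at -0.67 (SE 0.24, adjusted p = 0.0279), and each call depended on single libraries. B2m lost its call without Ltb4r2-/- M2 replicate 1 or 2 or Ltb4r2-/- M0 replicate 2 or 4 (adjusted p = 0.0681 to 0.18), and in DESeq2 (adjusted p = 0.0793). H2-Q4 lost it without Ltb4r2-/- M2 replicate 2, 3 or 4 or Ltb4r2-/- M0 replicate 3 or 4 (adjusted p = 0.0561 to 0.159). Rfx5 lost it without Ltb4r2-/- M2 replicate 1 or 4 or Ltb4r2-/- M0 replicate 1 or 3 (adjusted p = 0.0583 to 0.0932), and H2-Ab1 without Ltb4r2-/- M2 replicate 4 or Ltb4r2-/- M0 replicate 1 or 3 (adjusted p = 0.0795 to 0.114). In WT the values of B2m, H2-Q4 and Rfx5 were 0.60 (SE 0.30, adjusted p = 0.152), -0.34 (SE 0.36, adjusted p = 0.539) and -0.31 (SE 0.23, adjusted p = 0.347). Class I genes H2-K1 and H2-D1 and the supply genes Tap1, Tapbp and Psmb9 did not pass the test in M2 in either genotype.

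M1 against M2 sets both stimulated states side by side, and its groups are those of the contrasts above. In Ltb4r2-/- 12 of the 13 were higher in M1 and 1 lower (26.5% of all genes tested were higher and 26.5% lower). In WT 10 were higher and 2 lower (26.2% of all genes tested were higher and 26.3% lower). Cd74, H2-Ab1, H2-D1, H2-T23 and Tap1 had passed the filter through their M1 or M2 libraries. Of the 8 that passed in M0 alone, 7 were higher and 1 lower in Ltb4r2-/- M1. In WT M1 6 of those were higher and 2 lower. H2-T24 was lower in M1 than in M2, at log2 fold changes of -1.76 (SE 0.25, adjusted p = 2.60e-07) in Ltb4r2-/- and -1.53 (SE 0.25, adjusted p = 3.41e-06) in WT. The difference of Cd74 was smaller than against M0, at 0.92 (SE 0.36, adjusted p = 0.0295) in Ltb4r2-/- and 0.78 (SE 0.35, adjusted p = 0.0597) in WT. Without Ltb4r2-/- M1 replicate 2, the library with 122 CPM, it was 0.54 in Ltb4r2-/- (adjusted p = 0.245), and the call was also lost without Ltb4r2-/- M2 replicate 1 or 4 and in DESeq2 (adjusted p = 0.0534). Rfx5 was higher in Ltb4r2-/- M1 than in Ltb4r2-/- M2, at 0.69 (SE 0.25, adjusted p = 0.0191), and lower in WT M1 than in WT M2, at -0.65 (SE 0.24, adjusted p = 0.0244). The first call was lost without Ltb4r2-/- M1 replicate 1 or 3 or Ltb4r2-/- M2 replicate 1 or 4 (adjusted p = 0.0526 to 0.0947) and the other without WT M2 replicate 2 or 3 (adjusted p = 0.0659 to 0.113). The call of H2-D1 in Ltb4r2-/-, at 1.5 (SE 0.62, adjusted p = 0.0431), was lost when any of the 8 libraries but Ltb4r2-/- M1 replicate 1 was left out, with adjusted p of 0.0572 to 0.132.

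Ltb4r2-/- against WT within a state asks whether loss of BLT2 changes the pathway. No member had an adjusted p under 0.05 in edgeR's test in any state. In M1 0 of 14 members tested were called (0.0509% of all genes tested), in M2 0 of 9 (0.19%) and in M0 0 of 8 (0.131%). DESeq2 also called 0 in each state, with 2 members in M1 (H2-D1 and H2-Eb1), 1 in M2 (Rfx5) and 0 in M0 at an unadjusted p under 0.05. At an unadjusted p under 0.05 edgeR's test had 2 members in M1 (H2-D1 and Rfx5), 1 in M2 (Rfx5) and 0 in M0. The change from M0 to M1 did not differ between genotypes past the threshold for any of 13 members (0.0328% of all genes tested differed), nor did the change from M0 to M2 (0.0328%). Unadjusted, 1 member (Rfx5) had a p under 0.05 in the M1 change and 0 in the M2 change, and DESeq2 called 0 in both, with 1 member at an unadjusted p under 0.05 in each (Rfx5 in the M1 change and Tap1 in the M2 change).

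**Figure D4:**
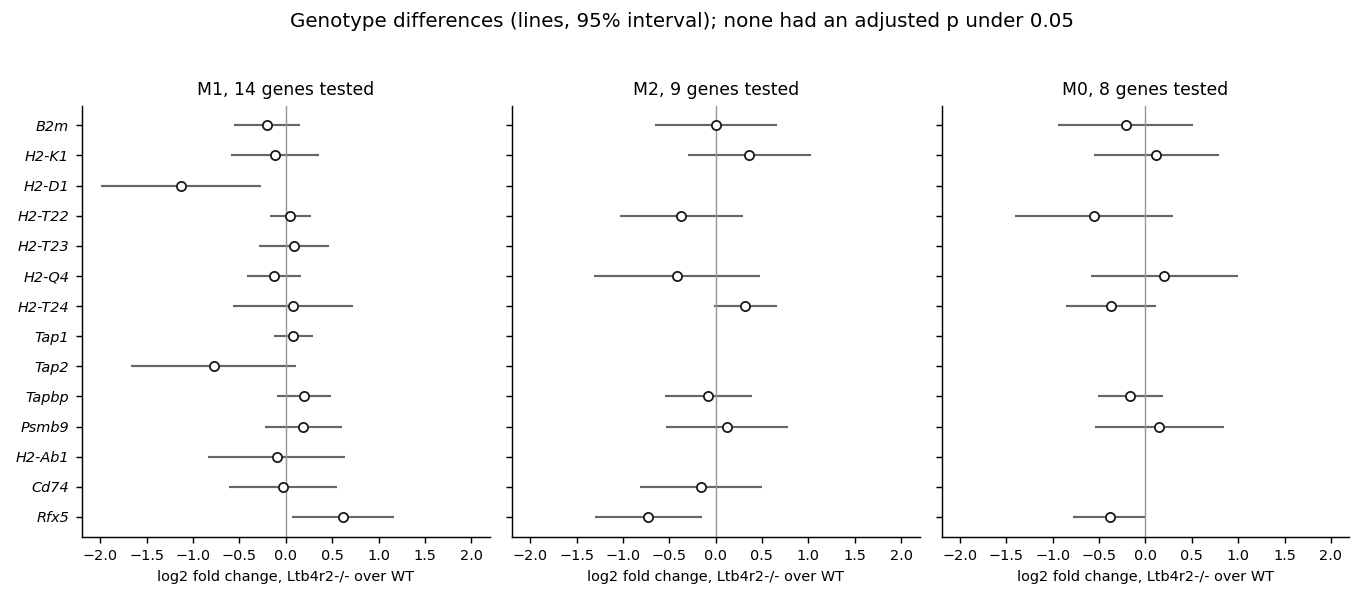
Log2 fold changes of Ltb4r2-/- over WT for the members tested in M1, M2 and M0, with 95% intervals as lines. All points are open because none had an adjusted p under 0.05. The interval of Tap1 in M1, -0.13 to 0.29, is among the narrow ones, and that of H2-D1, -2.0 to -0.27, is among the wide ones.

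For the genes with the most counts, the intervals give a rough range for a genotype difference. They are normal intervals from 4 libraries a group, so they are somewhat too narrow. In M1 the log2 fold change of Tap1 was 0.08 (95% interval -0.13 to 0.29), that of H2-T22 0.05 (-0.17 to 0.27), and that of B2m -0.20 (-0.55 to 0.15). For class II, H2-Ab1 had -0.10 (-0.84 to 0.64) and Cd74 -0.03 (-0.61 to 0.56). A p that misses the threshold does not show that the genotypes were alike.

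The libraries of a genotype stood apart for a few members. In M1, 4 of 25 members with at least 10 counts had no overlap between genotypes (3.18% of all genes with that many counts had none), in M2 0 of 18 (2.73%) and in M0 1 of 17 (3.08%). In M1, H2-D1 was lower in every Ltb4r2-/- library than in every WT library, 19.2 ± 8.12 CPM in Ltb4r2-/- and 42.2 ± 18.0 CPM in WT (SD, n = 4 each), with a log2 fold change of -1.13 (SE 0.44, adjusted p = 0.583). H2-Eb1 was lower too, at 14.6 ± 4.45 CPM in Ltb4r2-/- M1 and 32.7 ± 9.88 CPM in WT M1 (exact two-sided permutation p = 0.0286, n = 4 each). H2-DMa had 12 counts in Ltb4r2-/- M1 and 6 in WT M1. These were 2 to 4 counts in an Ltb4r2-/- library and 0 to 2 in a WT library, so the counts touched and the values in CPM lay apart only by the scaling of the libraries, at a lowest value of 4.81 CPM in Ltb4r2-/- and a highest of 4.76 CPM in WT. The summed macrophage markers were 215 to 371 CPM in Ltb4r2-/- M1 and 356 to 531 CPM in WT M1, and their part in these differences was not tested. H2-D1, H2-Eb1 and H2-DMa are 3 genes from 25 compared, and the exact test cannot give a p below 0.0286 for any single gene, so none would pass an adjustment over them.

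For Rfx5 the sign of the genotype difference was not the same in all states. This held for 7 of the 8 members tested in all 3 (B2m, H2-K1, H2-Q4, H2-T22, H2-T24, Tapbp and Rfx5), and none of these differences passed the test. Rfx5 had 64.2 ± 9.68 CPM in Ltb4r2-/- M1 and 42.2 ± 2.53 CPM in WT M1, 40.0 ± 3.58 CPM in Ltb4r2-/- M2 and 66.5 ± 21.7 CPM in WT M2, and 63.7 ± 9.54 CPM in Ltb4r2-/- M0 and 82.7 ± 3.14 CPM in the WT M0 libraries (SD, n = 4 each). The log2 fold change of Ltb4r2-/- over WT was 0.61 (SE 0.28, adjusted p = 0.638) in M1, -0.73 (SE 0.29, adjusted p = 0.999) in M2 and -0.39 (SE 0.20, adjusted p = 0.872) in M0. In M1 every Ltb4r2-/- library was above every WT library, and in M0 every one was below. The M1 change was 0.98 larger in Ltb4r2-/- on the log2 scale (SE 0.34, unadjusted p = 0.00622, adjusted p = 0.990 in edgeR's test), so it did not pass the test across genes.

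Other genes of the pathway, 38 in a list that is separate from the members, were read in the same fits, and 16 had enough counts. In M1 against M0, 8 were higher and 2 lower in Ltb4r2-/-, and 7 were higher and 2 lower in WT, with a median log2 fold change of 0.52 in Ltb4r2-/- and 0.37 in WT, against 27.2% of all genes tested higher and 25.7% lower in Ltb4r2-/-, and 26.9% higher and 24.3% lower in WT. Of these 16, 10 passed the filter in the M0 libraries alone, and 3 of them were higher and 2 lower in Ltb4r2-/- M1, and 2 higher and 2 lower in WT M1. Cd274, Irf1 and Marchf1, named below, were not among these 10. They passed through their M1 or M2 libraries, so a difference was built into their inclusion, and the median of the 16 holds them. Cd274, which encodes the checkpoint ligand PD-L1, was higher by 6.85 (SE 0.56, adjusted p = 2.06e-12) in Ltb4r2-/- and 6.34 (SE 0.53, adjusted p = 3.65e-12) in WT. Irf1, a transcription factor that acts on class I genes, was higher by 3.06 (SE 0.47, adjusted p = 1.22e-06) in Ltb4r2-/- and 2.18 (SE 0.43, adjusted p = 7.05e-05) in WT. Marchf1, a ubiquitin ligase that removes class II from the surface, was higher by 3.11 (SE 0.30, adjusted p = 6.83e-11) in Ltb4r2-/- and 3.48 (SE 0.30, adjusted p = 5.27e-12) in WT. Calr, the chaperone calreticulin of the class I loading complex, was higher by 1.21 (SE 0.19, adjusted p = 2.81e-06) in Ltb4r2-/- and 1.16 (SE 0.19, adjusted p = 3.83e-06) in WT. Genes on the opposite strand that were not counted share exon bases with Cd274, Marchf1 and Irf1.

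Among the pathway genes that fell in M1, Psmb7, the standard proteasome subunit that Psmb10 replaces, had -1.26 (SE 0.36, adjusted p = 0.00395) in Ltb4r2-/- and -1.92 (SE 0.38, adjusted p = 7.57e-05) in WT. Ctsl, a protease that cuts the invariant chain, had -2.98 (SE 0.54, adjusted p = 1.85e-05) in Ltb4r2-/- and -2.84 (SE 0.48, adjusted p = 7.60e-06) in WT. Gm47123 shares 1742 exon bases with Ctsl on the opposite strand and is not among the genes counted. In M2 against M0, 5 of the 16 were higher and 0 lower in Ltb4r2-/-, and 4 were higher and 2 lower in WT (17% of all genes tested were higher and 15% lower in Ltb4r2-/-, and 15.2% higher and 11.8% lower in WT). Of the 10 that passed in M0 alone, 4 were higher and 0 lower in Ltb4r2-/-, and 3 higher and 2 lower in WT. Marchf1 was not among these 10. Calr was higher by 1.46 (SE 0.19, adjusted p = 1.61e-07) in Ltb4r2-/- and 0.95 (SE 0.19, adjusted p = 2.01e-04) in WT, and Marchf1 by 1.17 (SE 0.32, adjusted p = 0.00465) in Ltb4r2-/- and 1.02 (SE 0.33, adjusted p = 0.0207) in WT. Psmb7 was higher by 0.94 (SE 0.30, adjusted p = 0.0142) in Ltb4r2-/- and 1.05 (SE 0.30, adjusted p = 0.00800) in WT, and Rfxank, a partner of RFX5, by 0.66 (SE 0.12, adjusted p = 3.21e-05) in Ltb4r2-/- and 0.45 (SE 0.12, adjusted p = 0.00358) in WT. In WT M2 the lower genes were Lgmn, a lysosomal protease, at -1.89 (SE 0.55, adjusted p = 0.00960), and Tapbpl, a tapasin relative, at -1.92 (SE 0.62, adjusted p = 0.0195). Rfxank shares 1341 exon bases with Nr2c2ap on the opposite strand, which had 5901 counts, and Psmb7 shares 405 with Nek6. No pathway gene was called between genotypes by edgeR's test, with 1 (Psme1, a proteasome activator subunit, in M2) at an unadjusted p under 0.05.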

How the data were processed

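RNA of 24 BMDM libraries, 4 in each of 6 groups, was sequenced from strand-specific polyA libraries. Reads were trimmed with cutadapt, aligned to mm10 with STAR and counted with HTSeq by the authors, and the deposited counts per gene, not normalized, were used here. The deposited log2 values were made by the authors from counts scaled by DESeq2 factors and served here only to check the counts. Tool versions and the strand setting are not given in the sources used here. Symbols damaged in 14 entries were restored from their Entrez IDs, and 0 columns of samples were left unmapped.

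Genes passing filterByExpr (minimum count 10, minimum total 15) entered edgeR's quasi-likelihood test after TMM scaling (edgeR 4.0.16, limma 3.58.1, R 4.3.3) with Benjamini-Hochberg adjustment at 0.05 over all genes tested. Contrasts of states and interactions used all 24 libraries in 1 fit, and genotypes the 8 libraries of a state. Standard errors are the absolute log2 fold change over the square root of F, and 95% intervals are normal ones. Both are approximate, and can be unstable where the log2 fold change is near 0. Members with few counts were compared by exact permutation of 4 against 4 libraries, with no adjustment over members. At least 10 counts over both groups were needed, so a member near 0 in M0 entered through the other state. Gene positions and overlaps are from GENCODE M21 (GRCm38), promoters from RefSeq (GRCm38.p6). Tests were tried on simulated counts. Replicate libraries of a group differed beyond sampling noise (chi-square per degree of freedom 2.31 to 8.82).

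Whether a replicate number marks the same animal in different groups is not given in the sources used here. Deviations of same-numbered libraries correlated at -0.21 to 0.14. No pair of groups had all 4 over 0.1, Ltb4r2-/- M2 and M0 had 3 of 4, and between WT M1 and M0 each of the 4 libraries was closest to its own number. The libraries were not treated as paired. Alternatives were RLE and total-count scaling, DESeq2 1.42.0, no filter, a mean of 50 counts or more, other sets of libraries, a replicate block and leaving out each library. The members, lists and tests were chosen with earlier results of these data known. Values in every library are given for members with at least 100 counts, and pathway genes are named where they passed the test with at least 100 counts, up to 4 per direction. Some items that this rule covers are not reported here.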

Additional observations from a re-analysis of the deposited data

Results flagged for a closer look

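In 7 of 96 groups of 4 libraries, the extreme library lay farther from the others than Dixon's 95% limit allows, where chance alone gives about 1 in 20. Cd74 had 122 CPM in Ltb4r2-/- M1 replicate 2, against 55.3 to 64.1 CPM in the other 3. H2-D1 had 7.22 CPM (3 counts) in Ltb4r2-/- M1 replicate 1, against 22.2 to 25.2 CPM, and 69.0 CPM in WT M1 replicate 2, against 30.5 to 36.0 CPM. H2-Eb1 had 7.75 CPM (4 counts) in WT M0 replicate 4, against 3.03 to 3.63 CPM. H2-T23 had 0 CPM in Ltb4r2-/- M0 replicate 1, against 2.75 to 2.98 CPM, which is 2 counts each. Psmb9 had 40.9 CPM in WT M0 replicate 3, against 23.2 to 23.6 CPM. Tap1 had 12.1 CPM (7 counts) in WT M2 replicate 1, against 4.06 to 4.78 CPM.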

How the results depend on the processing

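No member changed direction in any alternative among the calls reported. With a mean of at least 50 counts only 5 members were tested, and 4 were called in Ltb4r2-/- M1 against M0, 4 in WT M1 against M0, 3 in Ltb4r2-/- M2 against M0, 2 in WT M2 against M0, 5 in Ltb4r2-/- M1 against M2 and 5 in WT M1 against M2. In a fit of only the 8 libraries compared, 3 were called in Ltb4r2-/- M2 against M0. Leaving out single libraries gave 4 to 7 calls for Ltb4r2-/- M2 against M0 and 2 to 5 for WT M2 against M0, the lowest without Ltb4r2-/- M0 replicate 3 and without WT M2 replicate 4. Without Ltb4r2-/- M2 replicate 1, H2-Q4 was at -1.50 in Ltb4r2-/- M2 against M0. With total counts as the scale, Cd74 (0.36), H2-D1 (0.96) and Rfx5 (0.13) lost their calls in Ltb4r2-/- M1 against M2, as did Tapbp (0.41) in WT M1 against M2. In the interactions and between genotypes, 0 members were called in every alternative run.

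With the replicate block, the members called were 11 in Ltb4r2-/- and 12 in WT for M1 against M0, 7 in Ltb4r2-/- and 4 in WT for M2 against M0, and 12 in Ltb4r2-/- and 12 in WT for M1 against M2, where H2-D1 was lost in Ltb4r2-/- (1.41, adjusted p = 0.0857).

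Over all genes, total counts as the scale turned the share of calls that were higher in M1 than in M0 to 27.1% in Ltb4r2-/- and 26.2% in WT, against 51.4% in Ltb4r2-/- and 52.5% in WT with TMM. In M1 against M2 it was 27.2% in Ltb4r2-/- and 26.6% in WT, against 50% in Ltb4r2-/- and 49.9% in WT with TMM. A mean of at least 50 counts, which left 959 genes, gave 677 calls in Ltb4r2-/- and 670 in WT for M1 against M0 (1611 and 1561 with the usual filter in Ltb4r2-/- and WT), 546 in Ltb4r2-/- and 494 in WT for M2 against M0 (976 and 825), and 708 in Ltb4r2-/- and 697 in WT for M1 against M2 (1612 and 1600). Without a filter, 23 genes were called between genotypes in M1 (1 with it), 7 in M2 (4) and 15 in M0 (3), and 10 and 9 in the interactions (1 and 1). The mean of 50 gave 2 in M2 and the single fit of 24 libraries 2 in M1. Leaving out single libraries gave 1 to 2 in M1, 3 to 8 in M0, 1 to 3 in the M1 interaction and 1 to 4 in the M2 interaction. Members at 4 counts or fewer in a library lie at the limit of this depth.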
